A study of Mus musculus with 3 samples.

Results

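The genes described here are the nuclear genes for subunits of complexes II to V of the mitochondrial respiratory chain, in single cells of the mouse kidney at stage E15.5, in embryonic days. They were chosen by symbol from the 32285 genes of the count matrices. The rule took every symbol that starts with Uqcr, with Cox4 to Cox8 or with Atp5, together with *Sdha*, *Sdhb*, *Sdhc* and *Sdhd*, and left out pseudogenes. It gave 47 genes, of which 4 belong to complex II, 8 to complex III, 18 to complex IV and 17 to complex V. They lie on 18 chromosomes, with at most 6 on any one of them. The rule used no measured value. Droplet sequencing of the 3′ ends of transcripts was carried out on dissociated E15.5 kidneys of embryos with or without a gain-of-function insertion in *Enl* (also named *Mllt1*), a reader of acylated histones that is mutated in Wilms tumour. There was 1 library for each of 3 groups, and the Enl-WT and Enl-T1 libraries each came from more than 1 embryo. The number of embryos in the third is not given in the sources used here. Enl-WT embryos were *Enl* +/+ *Wt1* GFPCre/+. Enl-T1 embryos were *Enl* flox-T1/+ *Wt1* GFPCre/+, so that the mutant form was expressed from 1 of the 2 *Enl* alleles after recombination. The third group, Enl-T1 TDI-11055, had the genotype of Enl-T1, and the mothers received TDI-11055, a small molecule that occupies the acyl-binding pocket of ENL, by mouth at 100 mg/kg daily from E10.5 to E14.5. Enl-WT and Enl-T1 are labelled as having no treatment, and no library came from vehicle-dosed embryos. All 3 groups carried the GFPCre knock-in, which inactivates 1 copy of *Wt1* and drives recombination, by the study's account, in the progenitors of the nephron and of the stroma. The insertion lies in the part of the gene that encodes the acyl-binding YEATS domain, away from the 3′ ends that were counted, so counts of *Enl* cannot check the genotype labels. Where 3 values follow each other, the first is from Enl-WT, the next from Enl-T1 and the last from Enl-T1 TDI-11055.

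Complex II, succinate dehydrogenase, links the citric acid cycle to the respiratory chain by passing electrons from succinate to ubiquinone, and all of its subunits are encoded in the nucleus. Complex III passes electrons from ubiquinol to cytochrome c, complex IV passes them from cytochrome c to oxygen, and complex V uses the proton gradient that results to make ATP. Complexes III, IV and V combine nuclear subunits with subunits encoded by mitochondrial DNA, so that both genomes must be expressed to build them. The proximal tubule of the mature kidney is rich in mitochondria and depends on oxidative phosphorylation for reabsorption, whereas nephron progenitors are known to rely more on glycolysis.

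The promoters of these genes are known for binding sites of NRF1, of the ETS family factor GABP and of YY1, and they were searched first because shared sites are a property that the choice by symbol did not use. A window from 250 bases before to 50 bases after the start of the gene (RefSeq, build GRCm38.p6) was found for 36 of the 47 members and for 27025 genes in all. The letters of an NRF1 motif, GCGC followed by any base, then T and GCGC, stood on either strand in 10 of the 36 members (27.8%) and in 5.19% of all windows. The ETS letters CCGGAAGT stood in 4 of the 36 members (11.1%) and in 4.31% of all windows, and the longer YY1 letters, AAGATG followed by GCGGC, in none of the members and in 0.755% of all windows. The 10 members with NRF1 letters were *Sdha*, *Sdhd*, *Uqcrc1*, *Cox6a1*, *Atp5c1*, *Atp5g2*, *Atp5g3*, *Atp5h*, *Atp5k* and *Atp5o*, which amounted to 2 of 3 windows of complex II, 1 of 5 of complex III, 1 of 13 of complex IV and 6 of 15 of complex V. Shown here are windows of 3 members with NRF1 letters whose ratios of Enl-T1 to Enl-WT, given further on, lay far apart (*Sdha*, *Sdhd* and *Atp5k*), one of complex IV (*Cox6a1*) and one with ETS letters (*Uqcr11*). Each is written 5′ to 3′ on the strand of its gene, with the matched letters, or their reverse complement, in capitals.
Sdha: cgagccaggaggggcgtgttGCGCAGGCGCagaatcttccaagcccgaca
Sdhd: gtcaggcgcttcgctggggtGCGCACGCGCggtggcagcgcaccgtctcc
Atp5k: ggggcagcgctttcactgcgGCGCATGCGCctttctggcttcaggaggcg
Cox6a1: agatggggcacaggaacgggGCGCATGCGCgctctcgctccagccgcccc
Uqcr11: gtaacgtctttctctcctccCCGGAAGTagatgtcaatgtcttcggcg
The windows lie on the minus strand at chr13:74350266-74350315 (*Sdha*), chr9:50603899-50603948 (*Sdhd*), chr5:108434420-108434469 (*Atp5k*), chr5:115349091-115349140 (*Cox6a1*) and chr10:80406860-80406907 (*Uqcr11*). On the strand of the gene, the first matched letter lies 55, 79, 50, 162 and 66 bases before its start, in that order. A match describes the letters only, and binding was not measured here.

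Barcodes with 1000 to 6000 detected genes and at most 10% of unique molecular identifiers (UMIs) from mitochondrial genes were kept, which left 5233, 4144 and 2754 cells. Their median depths differed by library, at 5090, 9391 and 16931.5 UMIs, and 5, 8 and 7 barcodes were shared between pairs of libraries. Cells were clustered without the respiratory genes and named from markers, with the suffix -like, into lineages of the nephron (2218, 1306 and 1344 cells), stroma (870, 1391 and 269), ureteric epithelium (1742, 1173 and 1020) and endothelium (394, 256 and 116). For each class and library, UMIs of all cells were added up, and levels are given per 1000000 UMIs of that sum (CPM). No library had a replicate, so no test was possible. The 95% intervals cover counting error only, not differences between embryos, preparations or libraries. The word called is used for a ratio of at least 1.4 among genes with a mean of at least 5 CPM in the sums compared. The Enl-WT library stood apart from both others. The median cell had 16.5% of its UMIs from ribosomal protein genes there, against 26.8% and 27.9%, so a sum over other genes is a share of a different remainder. In the Enl-T1 TDI-11055 library, cells with very few mitochondrial UMIs were frequent, as given with the mitochondrially encoded subunits. Cells with *Xist* UMIs and none from Y-linked genes, called female, made up 26.5%, 73.3% and 35.1% of the libraries. Those with the reverse, called male, made up 46.5%, 16.5% and 35.4%, and the rest had no call.

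The 47 genes together took 1.47%, 2.05% and 2.11% of all UMIs of the kept cells. In the Enl-WT library the share was highest in the proximal tubule-like cells, the class with reabsorptive markers such as *Slc34a1*, at 2.12%. It was 1.69% in distal tubule/loop of Henle-like cells and 1.45% in NP1-like cells, the *Six2* and *Cited1* expressing nephron progenitors, and it was lowest in ureteric stroma-like cells at 1.13%. In the Enl-T1 library the order was different. The share there was 2.22% in proximal tubule-like cells, 2.39% in distal tubule/loop of Henle-like cells, 2.13% in NP1-like cells and 1.74% in medullary stroma-like cells, the lowest class. In the Enl-T1 TDI-11055 library it ran from 1.75% in medullary stroma-like cells to 2.60% in distal tubule/loop of Henle-like cells. The share was lower in Enl-WT than in either other library in every class named here, and the 3 libraries lay closest together in proximal tubule-like cells, at 2.12%, 2.22% and 2.38%. In NP1-like cells they lay at 1.45%, 2.13% and 2.20%. The proximal tubule-like class held 235, 24 and 62 cells.

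**Figure D1:**
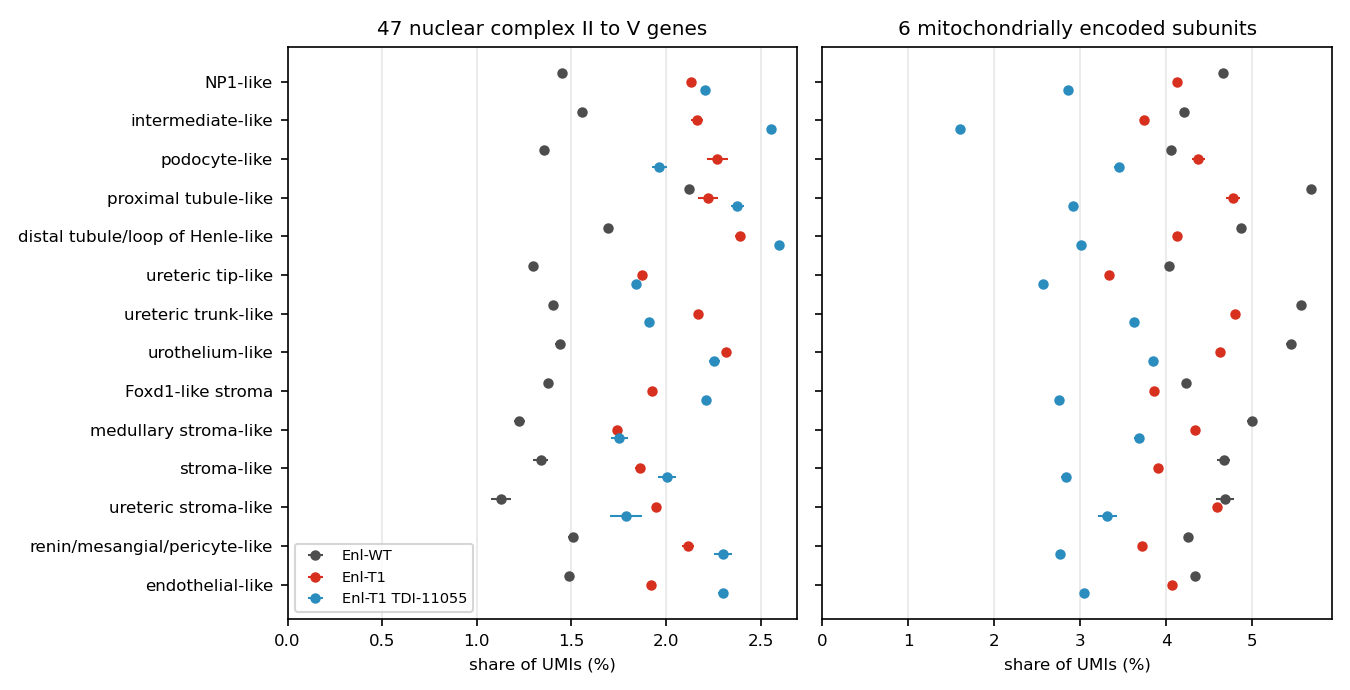
Share of all UMIs (x axis, percent) in each cell class (y axis) and library, with 95% intervals for counting error. One panel shows the 47 nuclear subunit genes and the other the 6 mitochondrially encoded subunits of complexes III to V. For the nuclear genes in Enl-WT the proximal tubule-like cells stand above the other classes at 2.12%, whereas in the other libraries they lie within the range of the nephron classes.

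The comparison of proximal tubule-like with NP1-like cells within a library asks how the genes differ between progenitors and a reabsorptive tubule without crossing libraries. The NP1-like class pooled sub-clusters in proportions that differed by library. Only 1 of them had markers of the class among its leading genes, as given with Enl-T1 against Enl-WT. The part of this mix in the ratios was not tested. In Enl-WT, 39 of 42 members with enough counts were higher in proximal tubule-like cells, 28 were called higher and 1 lower, and the median log2 ratio was 0.56. Over all genes tested, 30.9% were called higher and 28.2% lower, with a median of -0.01. By complex, 4 of 4 genes of complex II were called higher, 6 of 8 of complex III, 6 of 13 of complex IV and 12 of 17 of complex V, with medians of 0.67, 0.68, 0.48 and 0.53. The highest members with more than a few UMIs belonged to complexes III and V. Values in parentheses are ratios with their 95% intervals. *Uqcrc1*, a core protein of complex III, was at 212 against 109 CPM (ratio 1.95, 1.69 to 2.24), and *Uqcr10*, a small subunit, at 364 against 189 CPM (ratio 1.93, 1.74 to 2.15). Of complex V, *Atp5b*, the catalytic beta subunit, was at 1614 against 874 CPM (ratio 1.85, 1.76 to 1.94) and *Atp5g3*, one of 3 genes for the same c-ring protein, at 726 against 389 CPM (ratio 1.87, 1.73 to 2.01). In complex II the catalytic flavoprotein *Sdha* was at 223 against 139 CPM and the membrane anchor *Sdhc* at 158 against 91.2 CPM. At the other end stood *Cox6b2*, *Atp5g2* and *Cox7a2l*, with log2 ratios of -0.67, -0.17 and -0.02. Nuclear genes of complex I (symbols starting with Nduf) had a median of 0.50, near that of the members. Genes with ribosomal protein symbols (Rpl or Rps), which also took in some kinase genes, had a median of -0.40.

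The same comparison gave smaller ratios in the other libraries. In Enl-T1, 33 of 43 members were higher in proximal tubule-like cells, 3 were called higher and 1 lower, with a median of 0.08, beside 30.1% and 23.2% of all genes and their median of 0.06. In Enl-T1 TDI-11055, 34 of 43 were higher, 3 were called higher and 1 lower, with a median of 0.11, beside 24.0% and 22.5% of all genes and their median of -0.02. The summed share of the members in proximal tubule-like cells was 1.46-fold (1.44 to 1.48) that in NP1-like cells in Enl-WT, 1.04-fold (1.02 to 1.07) in Enl-T1 and 1.08-fold (1.06 to 1.10) in Enl-T1 TDI-11055. The 3 members called higher in both mutant libraries were the same, namely *Cox7a1*, *Cox4i2* and *Sdhc*. *Cox4i2* rested there on 9 and 6 UMIs in the tubule class. *Sdhc* was at 118 against 84.1 CPM in Enl-T1 and at 144 against 101 CPM in Enl-T1 TDI-11055. Both ratios lay close to the fold of 1.4, in tubule classes of 24 and 62 cells. The iron-sulphur subunit *Sdhb* of the same complex had log2 ratios of 0.56, -0.28 and -0.46, so it was not higher in the tubule in the mutant libraries. The difference between libraries was not tested. The Enl-WT ratio moved with the mitochondrial share of the cells, whose median was 7.10% in proximal tubule-like and 6.18% in NP1-like cells. With cells of at most 5% mitochondrial UMIs, which left 23 proximal tubule-like cells in Enl-WT, the median was 0.34 and 13 members were called higher. The share of all genes called with that filter is not given here. The part of this in the result was not tested.

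**Figure D2:**
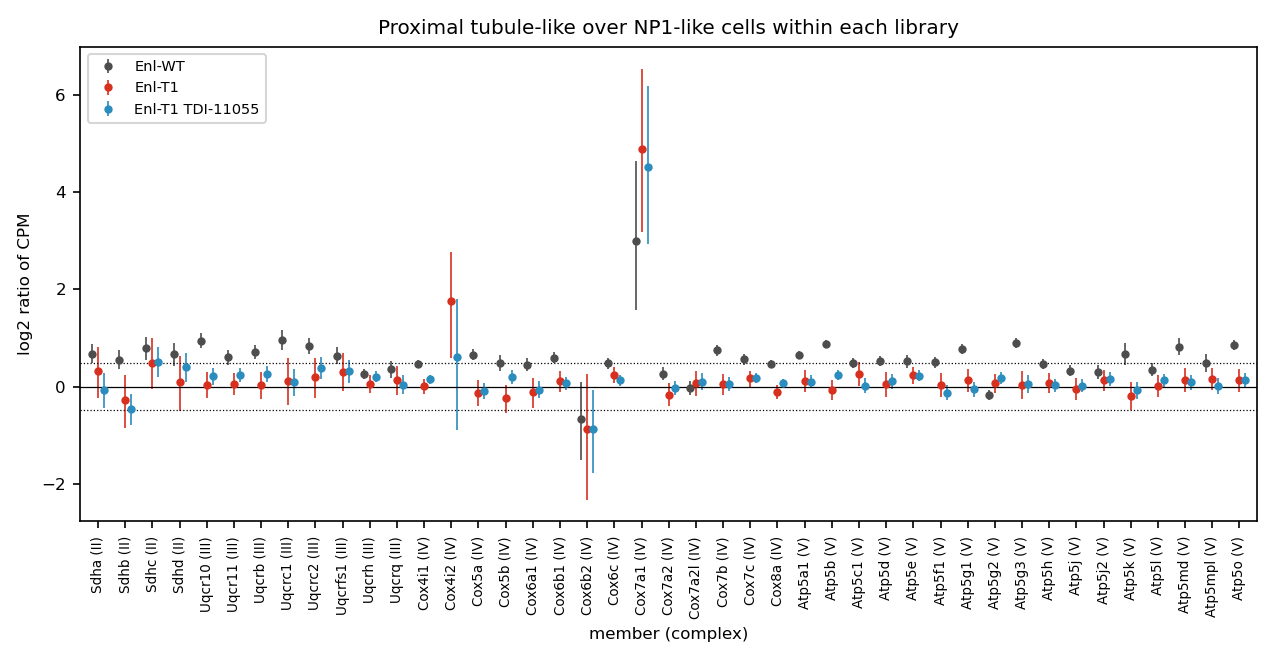
Log2 ratio of CPM in proximal tubule-like over NP1-like cells (y axis) for each member with enough counts (x axis, by complex), within each library, with 95% intervals and dotted lines at a fold of 1.4. In Enl-WT 39 of 42 members lie above 0, with a median of 0.56, and in the other libraries the medians are 0.08 and 0.11.

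Other classes were compared with NP1-like cells in the same way. In distal tubule/loop of Henle-like cells, 39 of 41, 36 of 42 and 38 of 41 members were higher, with medians of 0.25, 0.18 and 0.26, while 2, 0 and 1 were called higher beside 24.1%, 28.0% and 23.9% of all genes. So the direction was shared by most members in each library and the ratios were small. Ureteric tip-like cells showed the opposite direction, with 4 of 41, 6 of 42 and 4 of 41 members higher and medians of -0.16, -0.18 and -0.28. Medullary stroma-like cells were lower still, with medians of -0.26, -0.40 and -0.44 and 10, 14 and 14 members called lower beside 26.1%, 23.7% and 21.9% of all genes. Podocyte-like cells, the filtering cells of the glomerulus, had medians of -0.11, 0.08 and -0.20, which changed sign between libraries.

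Several complex IV subunits exist as isoforms encoded by separate genes, and the share of one isoform in the UMIs of its pair does not depend on the total of a class. *Cox4i1* and *Cox4i2* encode the alternative forms of subunit 4, and *Cox4i2* is known from lung and from oxygen-sensing cells. Over all cells, *Cox4i1* was at 925, 1104 and 1084 CPM and *Cox4i2* at 8.15, 13.8 and 8.61 CPM. *Cox4i2* was concentrated in renin/mesangial/pericyte-like cells, marked by genes such as *Ren1*, *Rgs5* and *Pdgfrb*. There it made up 12.8% (10.8 to 15.0) of Cox4 UMIs in Enl-WT, 17.8% (15.6 to 20.1) in Enl-T1 and 21.7% (18.4 to 25.3) in Enl-T1 TDI-11055, from 131, 201 and 126 *Cox4i2* UMIs in 183, 94 and 24 cells. These intervals cover counting error only, and the share also differed between male and female cells of Enl-WT, as given with the processing. The class pooled sub-clusters of 128 and 55 cells in Enl-WT, 69 and 25 in Enl-T1, and 20 and 4 in Enl-T1 TDI-11055. The difference between libraries was not tested. In all stroma the share was 4.09%, 3.24% and 4.91%, in the nephron 0.495%, 0.933% and 0.638%, in ureteric cells 0.208%, 0.247% and 0.193% and in endothelial cells 0.384%, 0.289% and 0.140%. Among nephron classes the share was highest in intermediate-like cells, at 1.10%, 3.01% and 1.75%, and no *Cox4i2* UMI lay beside the 2080 Cox4 UMIs of proximal tubule-like cells in Enl-WT, whose upper limit is 0.177%. Medullary stroma-like cells held 1.91%, 2.69% and 7.49%. After thinning each cell to 2000 UMIs, 21.1%, 38.3% and 41.7% of renin/mesangial/pericyte-like cells had a *Cox4i2* UMI, compared with 48.1%, 69.1% and 70.8% before thinning, with 4513, 7534 and 14660.0 UMIs in the median cell. In ureteric tip-like cells, taken as a class outside the stroma for the level that free RNA can give, 0.108%, 0.474% and 0.180% had one after thinning, with 5431, 12474 and 22186 UMIs in the median cell.

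*Cox7a1* and *Cox6a2* encode the forms of subunits 7a and 6a found in heart and skeletal muscle, and *Cox6b2*, *Cox7b2* and *Cox8c* are known from testis. *Cox7a1* shares in the pair with *Cox7a2* were 2.42%, 4.29% and 2.17% in proximal tubule-like cells, 1.57%, 4.33% and 2.23% in urothelium-like cells and 1.51%, 2.02% and 1.76% in ureteric trunk-like cells, against 0.372%, 0.135% and 0.0944% in NP1-like cells. It was higher in proximal tubule-like than in NP1-like cells in each library, by 7.99-fold (2.97 to 24.9), 29.6-fold (9.13 to 93.3) and 23.1-fold (7.65 to 72.9), although it rested on 16, 7 and 9 UMIs in the tubule class. After thinning to 2000 UMIs, 4 of 232, 0 of 23 and 0 of 62 tubule cells had a *Cox7a1* UMI, which allows shares of up to 14.8% and 5.78% in the mutant libraries (upper exact bounds), compared with 6.38%, 12.5% and 12.9% before thinning. In NP1-like cells 0.359%, 0.257% and 0.267% had one after thinning, so in the mutant libraries a higher share in the tubule was not detectable at this depth. *Cox6b2* took 14.2%, 16.1% and 13.0% of Cox6b UMIs in Foxd1-like stroma and 10.0%, 13.1% and 11.2% in all stroma. It took 5.70%, 5.49% and 6.43% in ureteric cells, 3.69%, 5.66% and 4.79% in the nephron and 1.56%, 0.957% and 0.516% in endothelial cells. In each library stroma was highest of these lineages and endothelium lowest. Of the sub-clusters pooled as Foxd1-like stroma, one had markers of the class among its leading genes (138, 104 and 46 cells). The others were led by genes of the cell cycle such as *Ube2c* (108, 138 and 40 cells) and *Rrm2* (94, 118 and 57 cells). *Cox6b2* was also the member called lower in proximal tubule-like than in NP1-like cells in all 3 libraries, with log2 ratios of -0.67, -0.87 and -0.86. That direction was not stable, since it turned to 0.35 and 0.36 in Enl-T1 and Enl-T1 TDI-11055 with cells thinned to 2000 UMIs and to 1.42 in Enl-WT with cells of at most 5% mitochondrial UMIs. The remaining tissue forms were at or near 0. *Cox6a2* and *Cox8c* had 0 UMIs in all 3 libraries, which allows up to 0.0937, 0.0679 and 0.0693 CPM, *Cox8b* had 0, 2 and 0 UMIs and *Cox7b2* 2, 3 and 7. Their partners *Cox6a1*, *Cox8a* and *Cox7b* were at 303, 313 and 371 CPM, 819.9, 1383 and 1322 CPM and 352, 530.0 and 549 CPM over all cells.

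**Figure D3:**
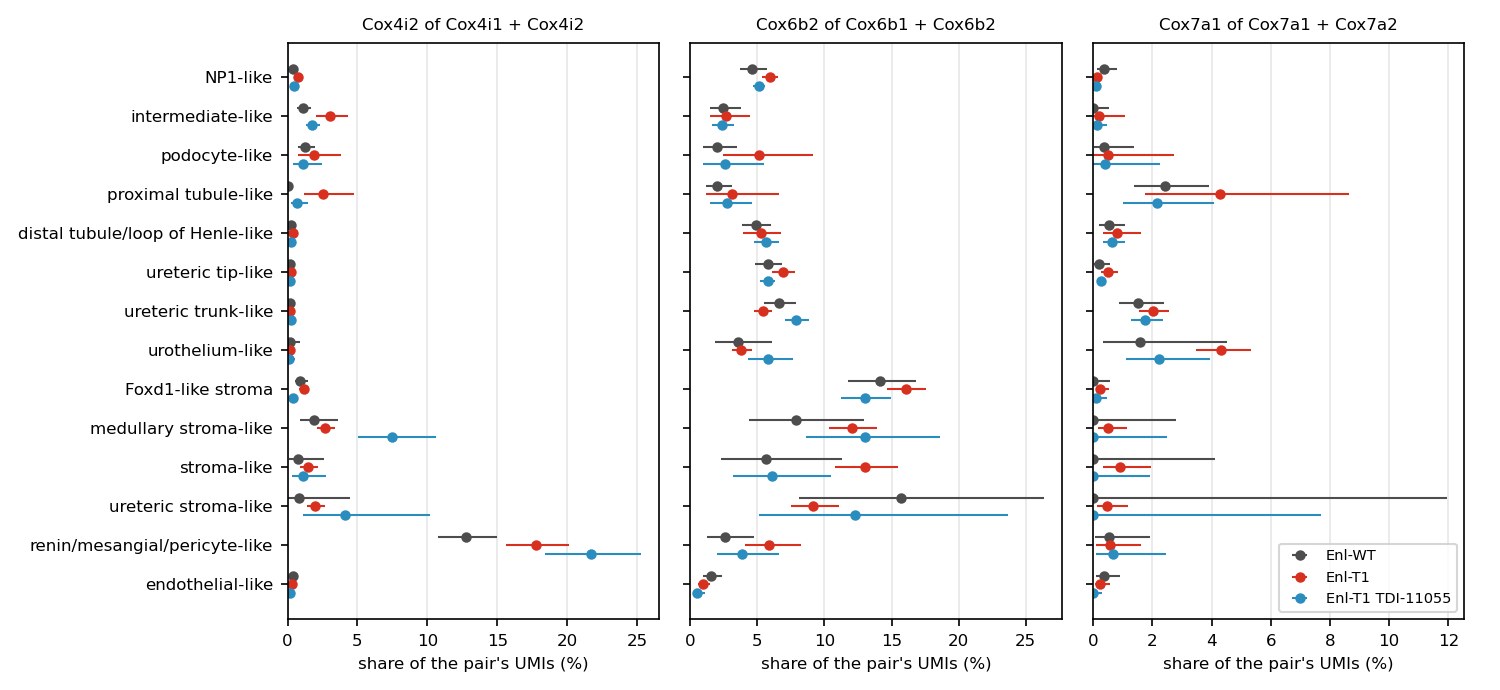
Share of one isoform in the UMIs of its pair (x axis, percent) by cell class (y axis) and library, with exact 95% intervals, for 3 pairs of complex IV. *Cox4i2* reaches 21.7% in renin/mesangial/pericyte-like cells and is at most 3.01% in the nephron, ureteric and endothelial classes.

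The c-ring of complex V, through which protons turn the enzyme, is built from 1 mature protein encoded by *Atp5g1*, *Atp5g2* and *Atp5g3*, which differ in their targeting peptides. Over all cells these genes gave 31.8%, 39.4% and 28.7% of their summed UMIs in Enl-WT, 31.4%, 44.4% and 24.2% in Enl-T1 and 29.8%, 48.9% and 21.3% in Enl-T1 TDI-11055, so *Atp5g2* had the highest share in each library. The share of *Atp5g3* was 35.2%, 21.9% and 20.8% in proximal tubule-like cells, 35.3%, 25.3% and 26.7% in podocyte-like cells and 26.4%, 22.6% and 21.3% in NP1-like cells. In Enl-WT the tubule and podocyte classes were thus above the progenitors, whereas in the mutant libraries proximal tubule-like cells were slightly below them. At least 25% of the 3′ end of *Atp5g1* and of *Atp5g2* is repeated in another gene of the annotation, where the counting can lose or share reads, so shares within this trio are uncertain.

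The comparison of Enl-T1 with Enl-WT asks what the mutation changes. Genes for small subunits were higher in Enl-T1, and genes for large catalytic subunits were near no change or lower. In the nephron, 20 of 42 members were called higher in Enl-T1 and 3 lower, beside 6.87% and 44.9% of all genes. The median log2 ratio of the members was 0.34 and that of all genes -0.41. In stroma 18 of 42 were called higher and 2 lower (all genes 8.70% and 36.9%), in ureteric cells 21 of 42 and 0 (all genes 7.48% and 34.7%), and in endothelial cells 16 of 41 and 1 (all genes 7.58% and 36.7%). The same 16 members were called higher in all 4 lineages, which include the ureteric epithelium and the endothelium. From these libraries the study had reported a mitochondria-related signature, with Nduf, Atp and Cox genes, that was higher in Enl-T1 across the whole kidney. Beside the 16 members, 2.22% of all genes were called higher in each of the 4 lineages, and the lineages come from the same 2 libraries. The members were *Uqcr10*, *Uqcr11*, *Uqcrb*, *Uqcrh*, *Cox5b*, *Cox6b1*, *Cox6c*, *Cox7a2*, *Cox7c*, *Cox8a*, *Atp5e*, *Atp5j2*, *Atp5k*, *Atp5l*, *Atp5md* and *Atp5mpl*. Nephron cells of the 2 libraries differ in the mix of classes, and within NP1-like cells alone 20 of 42 members were called higher and 1 lower (all genes 7.71% and 39.7%). The NP1-like class pooled 4 sub-clusters in different proportions, with 335, 184, 191 and 135 cells in Enl-WT and 164, 256, 229 and 131 in Enl-T1. Only the first of these had markers of the class among its 10 leading genes, and the last 2 were led by genes of the cell cycle such as Rrm2 and Ube2c. The part of this mix in the result was not tested. Because the median of all genes was well below 0, ratios were also read relative to it. Then 39 of 42 members lay above the median of all genes in the nephron, 38 of 42 in stroma, 40 of 42 in ureteric cells and 35 of 41 in endothelial cells. Median-of-ratios scaling sets the typical gene to no change, and more of all genes are then called higher too. With it 26 members were called higher in the nephron and none lower, beside 19.3% of all genes called higher and 40.6% in either direction. In stroma 24 were called higher and none lower, beside 18.5% of all genes called higher and 35.8% in either direction, in ureteric cells 28 and none, beside 16.9% of all genes called higher and 31.3% in either direction, and in endothelial cells 22 and none, beside 17.6% of all genes called higher and 34.0% in either direction.

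Complex II had no member called higher in any of the 4 lineages. In the nephron *Sdha*, the flavoprotein that oxidises succinate, was at 154, 93.3 and 109 CPM, and its ratio of Enl-T1 to Enl-WT was 0.606-fold (0.565 to 0.649). *Sdhb* was at 137, 129.8 and 173 CPM, *Sdhc* at 106, 85.2 and 103 CPM and the second anchor *Sdhd* at 101, 93.1 and 121 CPM, with log2 ratios of -0.08, -0.32 and -0.12. Thus 3 of the 4 genes lay between no change and the median of all genes in the nephron, and *Sdha* below both. Across lineages, *Sdha* had log2 ratios of -0.72, -0.49, -0.30 and -0.48 in nephron, stroma, ureteric and endothelial cells.

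Complex III was divided by the size of its subunits. Its large subunits, the core proteins *Uqcrc1* (135, 127 and 157 CPM) and *Uqcrc2* (195, 168 and 212 CPM) and the Rieske iron-sulphur protein *Uqcrfs1* (191, 167 and 211 CPM), had nephron log2 ratios of -0.08, -0.21 and -0.19. Its small subunits were higher in Enl-T1. *Uqcr11* was at 265, 612 and 562 CPM (ratio 2.31, 2.22 to 2.40) and *Uqcr10* at 231, 439 and 420.3 CPM (ratio 1.90, 1.82 to 1.98). The hinge protein *Uqcrh*, *Uqcrq* and *Uqcrb* had log2 ratios of 0.67, 0.58 and 0.49. All 5 small subunits were called higher in the nephron, and none of the 3 large ones was called.

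Complex IV, whose nuclear subunits are mostly small and surround a core encoded by mitochondrial DNA, had 9 of 13 members called higher in the nephron and a median of 0.83. *Cox6c* was at 450.3, 991 and 952 CPM (ratio 2.20, 2.14 to 2.27), *Cox5b*, which binds zinc, at 220.1, 450.4 and 545 CPM (ratio 2.05, 1.96 to 2.14), *Cox7c* at 505, 1023 and 1090.3 CPM (ratio 2.03, 1.97 to 2.09) and *Cox8a* at 855, 1551 and 1479.8 CPM (ratio 1.81, 1.77 to 1.86). *Cox7a2*, *Cox6b1* and *Cox7b* had log2 ratios of 0.83, 0.67 and 0.63. The 4 members tested but not called were *Cox4i1* (1003, 1232 and 1212 CPM), *Cox7a2l*, which joins complexes III and IV in supercomplexes, *Cox6a1* and *Cox5a*, with log2 ratios of 0.30, 0.24, 0.12 and -0.05. The low isoforms *Cox4i2* (4.99, 11.6 and 7.78 CPM) and *Cox6b2* (15.3, 38.1 and 33.6 CPM) were called higher in the nephron too. In ureteric cells the highest ratio belonged to *Cox7a1*, at 2.23, 10.6 and 3.53 CPM (ratio 4.75, 3.11 to 7.56), from 25, 164 and 67 UMIs. Its level was highest in urothelium-like cells, at 4.22, 25.5 and 11.3 CPM from 3, 83 and 11 UMIs, and these made up 122, 230 and 54 of the ureteric cells. In ureteric trunk-like cells it was at 4.30, 10.9 and 7.49 CPM from 17, 63 and 41 UMIs. The part of the mix of classes in the result was not tested.

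Complex V held the highest ratio in the nephron and 2 of the 3 lowest, with 6 of 17 members called higher and 2 lower. The catalytic alpha and beta subunits *Atp5a1* and *Atp5b* were lower in Enl-T1 in the nephron, at 841, 542 and 665 CPM (ratio 0.645, 0.627 to 0.664) and 1049.5, 739.9 and 1012 CPM (ratio 0.705, 0.688 to 0.723). Small subunits of the membrane part were higher, with *Atp5k* at 110.0, 421 and 455 CPM (ratio 3.82, 3.61 to 4.05), *Atp5mpl* at 173, 522 and 512 CPM (ratio 3.02, 2.88 to 3.16) and *Atp5md* at 168, 475 and 546 CPM (ratio 2.82, 2.69 to 2.96). *Atp5e*, the epsilon subunit of the rotor, was at 341, 894 and 877 CPM (ratio 2.62, 2.53 to 2.71), while the gamma and delta subunits of the same rotor, *Atp5c1* and *Atp5d*, had log2 ratios of -0.07 and -0.04. In the peripheral stalk, which holds the catalytic head still, *Atp5f1*, *Atp5h*, *Atp5j* and *Atp5o* had log2 ratios of 0.01, 0.22, 0.26 and -0.13. Thus *Atp5e* stood apart from its partners in the rotor, and the genes of the stalk lay near no change. *Atp5j2* and *Atp5l*, of the membrane part, had log2 ratios of 1.00 and 0.67, and the c-ring genes *Atp5g1*, *Atp5g2* and *Atp5g3* had 0.00, 0.39 and -0.29. *Atp5k* was the highest member in the nephron, stroma and endothelium, and second to *Cox7a1* in ureteric cells, with log2 ratios of 1.93, 1.77, 1.66 and 2.01. *Atp5k* and *Sdha*, at opposite ends in the nephron, both carry the NRF1 letters shown above.

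**Figure D4:**
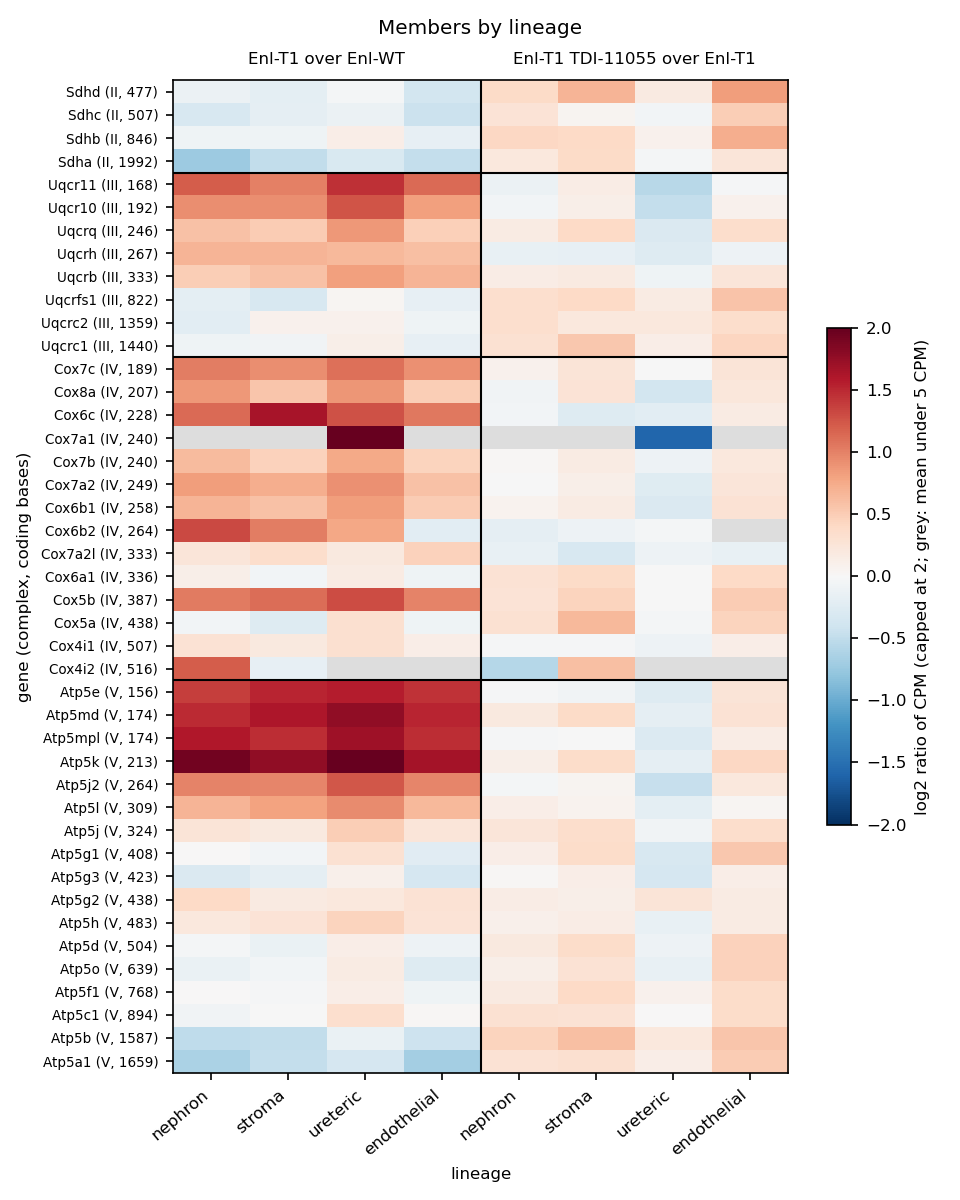
Log2 ratio of CPM for each member (rows, by complex) with its coding length in 4 lineages (columns). One panel divides Enl-T1 by Enl-WT and the other Enl-T1 TDI-11055 by Enl-T1. Colours end at -2 and 2, values beyond share the end colour, and grey marks a mean under 5 CPM. *Atp5k* reaches 1.93 and *Sdha* -0.72 for Enl-T1 over Enl-WT in the nephron, and 16 members are called higher in all 4 lineages.

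Small subunits have short coding sequences, so the members were set beside all genes of the same coding length. In the nephron all 16 tested members with fewer than 300 coding bases were called higher in Enl-T1 and had a median log2 ratio of 1.01, while 42.4% of 231 genes of that length were called higher, with a median of 0.34. From 300 to 599 bases, 4 of 16 members and 15.9% of 1196 genes were called higher. None of the 5 members from 600 to 1199 bases was called, and of the 5 with at least 1200 bases, 3 were called lower, beside 60.2% of 5929 genes of that length. The rank correlation of coding length with the log2 ratio (Spearman) was -0.84 across the 42 members and -0.47 across 10264 genes, given as a description since genes of a library share its depth and RNA. Members with short coding sequences thus stood above other short genes, and the relation with length ran through all genes. Genes with ribosomal protein symbols (Rpl or Rps), most of them short, showed the same direction, with 61 of 94 called higher and a median of 0.68. These symbols also took in longer kinase genes such as *Rps6ka1* and *Rps6ka3*, with 2205 and 2220 coding bases. The set is therefore not one of ribosomal proteins alone. Nuclear complex I genes had 12 of 36 called higher and a median of 0.26. Among members of at least 300 coding bases, 4 were called higher in the nephron and the median was -0.047. With 1 library a group, the genotype and the library cannot be told apart in this relation. For 9 members at least 25% of the 3′ end is repeated in another gene. These were *Uqcrb*, *Cox6c*, *Cox7c*, *Atp5g1*, *Atp5g2*, *Atp5h*, *Atp5l*, *Atp5md* and *Atp5o*, and their levels are uncertain. Some ribosomal protein genes whose 3′ end is 100% repeated were very low in Enl-WT alone. Over all cells *Rpl9* was at 50.1, 2574 and 2913 CPM and *Rpl10* at 19.0, 1334 and 1678 CPM. *Rps12*, also 100% repeated, differed less, at 2895, 5037 and 4873 CPM. The part of repeated ends in the ratios was not tested. Over all cells the 13 members under 300 bases without such repeats were all called higher, beside 6.88% of all genes of any length. Genes under 300 bases, of which 42.4% were called higher in the nephron, are the closer comparison.

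**Figure D5:**
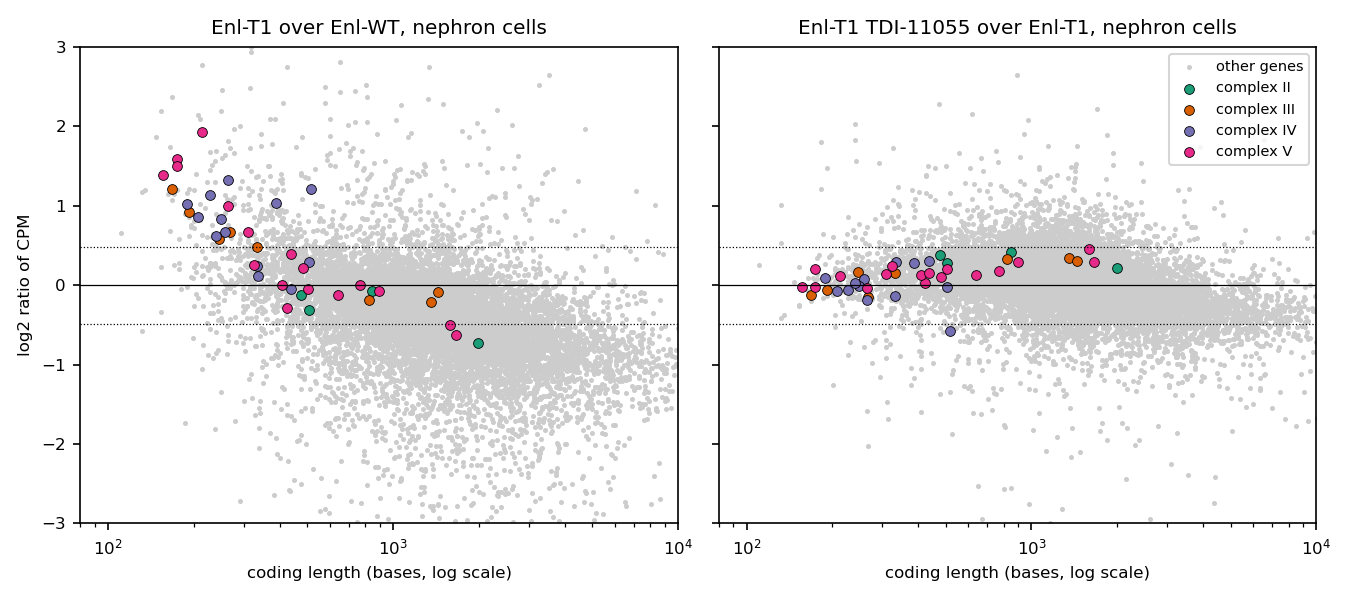
Log2 ratio (y axis) of Enl-T1 to Enl-WT in one panel and of Enl-T1 TDI-11055 to Enl-T1 in the other, against coding length in bases (x axis, log scale), for all genes tested and for the members, coloured by complex, in nephron cells. Genes beyond the ends of the axes are not drawn. All 16 members under 300 bases lie above the fold of 1.4 for Enl-T1 over Enl-WT.

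Subunits encoded by mitochondrial DNA are partners of these genes in complexes III to V, namely *mt-Cytb* of complex III, *mt-Co1*, *mt-Co2* and *mt-Co3* of complex IV, and *mt-Atp6* and *mt-Atp8* of complex V. In the nephron *mt-Co1* was at 8436, 6549 and 4005 CPM, *mt-Cytb* at 5813, 5431 and 4266 CPM and *mt-Atp6* at 12006, 10064 and 6512 CPM. Between Enl-T1 and Enl-WT they had a median of -0.12 with 1 of 6 called higher, beside 6.87% of all genes. The limit on mitochondrial UMIs for kept cells acts on the quantity compared here, and it removed 929, 1397 and 824 barcodes. The values for the 6 subunits, here and against Enl-T1 TDI-11055, therefore describe the kept cells only. Whether the 6 share the ratios of the small nuclear subunits cannot be decided from them. Relative to Enl-T1, in Enl-T1 TDI-11055 all 6 were lower in each of the 4 lineages. In the nephron 5 of 6 were called lower with a median of -0.66, in stroma 4 with -0.54, in ureteric cells 5 with -0.52 and in endothelial cells 2 with -0.41. Of all genes, 10.9% were called lower in the nephron, 12.8% in ureteric and 23.2% in endothelial cells. In stroma 31.3% of all genes were called in either direction. A set of cells moved with the result for the 6 subunits. Cells with under 1% mitochondrial UMIs made up 1.13%, 7.43% and 44.7% of the nephron, and 154 of 212 intermediate-like cells of Enl-T1 TDI-11055. In that library they had a median of 5114 UMIs and 1725 genes, against 19824 UMIs and 4724 genes in the other cells. These cells were set apart, after seeing the data, by the quantity that is compared here, so values without them describe the remaining cells and are no test. In the remaining cells 1 of the 6 was called lower in the nephron with a median of -0.40, and in stroma, ureteric and endothelial cells 3, 3 and 1 were. The nuclear members were not scarce in these cells. In the nephron of Enl-T1 TDI-11055 they took 2.76% of the non-mitochondrial UMIs of cells under 1%, against 2.30% in the rest.

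The comparison of treated with untreated mutant embryos sets TDI-11055 against no treatment. Without a library from vehicle-dosed embryos, the compound, the dosing and the library cannot be told apart. Few nuclear members were called. The study, from the same libraries, reported that TDI-11055 left the mitochondrial and metabolic genes raised in Enl-T1 unchanged. In the nephron 0 of 42 were called higher and 1 lower, beside 9.68% and 10.9% of all genes, with medians of 0.13 for members and 0.00 for all genes. Without the cells under 1% mitochondrial UMIs, both medians were 0.06 in the nephron, and in NP1-like cells 20 of 42 members were higher. The one called was *Cox4i2*, at 4.99, 11.6 and 7.78 CPM (ratio 0.670, 0.534 to 0.841), and its log2 ratio turned to 0.10 with cells thinned to 2000 UMIs. In stroma 5 of 42 were called, each of them higher, beside 15.8% of all genes called higher and 31.3% called in either direction, with a median of 0.26. They were *Sdhd* at 62.9, 54.8 and 87.7 CPM (ratio 1.60, 1.39 to 1.84), *Cox5a* at 338, 283 and 443 CPM (ratio 1.56, 1.47 to 1.66), *Cox4i2* at 39.7, 35.5 and 53.8 CPM (ratio 1.52, 1.27 to 1.81), *Atp5b* with a log2 ratio of 0.60 and *Uqcrc1* with 0.54. In stroma 269 cells stood against 1391, and the mix of classes differed between them, with 143 and 360 Foxd1-like cells and 10 and 224 ureteric stroma-like cells. The part of this in the result was not tested. The *Cox4i2* ratio lay below 1 in the nephron and above 1 in stroma, but the nephron direction did not hold after the thinning given above. In ureteric cells 0 were called higher and 2 lower (all genes 11.4% and 12.8%), with a median of -0.10 and 10 of 42 members higher. The members called were *Cox7a1* at 2.23, 10.6 and 3.53 CPM (ratio 0.333, 0.247 to 0.445) and *Uqcr11* at 207, 569.6 and 387 CPM (ratio 0.679, 0.658 to 0.700). In endothelial cells 8 of 40 were called higher and 0 lower (all genes 13.6% and 23.2%), with a median of 0.29, from 116 and 256 cells. Besides 3 genes of complex II these were *Uqcrfs1*, *Cox5b*, *Atp5a1*, *Atp5b* and *Atp5g1*, with log2 ratios of 0.56, 0.51, 0.50, 0.56 and 0.53. Within NP1-like cells 0 of 42 were called higher and 1 lower (all genes 9.53% and 10.6%).

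All 4 genes of complex II were higher with TDI-11055 than without it in the mutant nephron, stroma and endothelium. Their log2 ratios were 0.22, 0.41, 0.28 and 0.38 in the nephron for *Sdha*, *Sdhb*, *Sdhc* and *Sdhd*, none of them called. In endothelial cells 3 of the 4 were called, with *Sdhb* at 119, 106 and 174 CPM (ratio 1.65, 1.41 to 1.93), *Sdhd* at 93.1, 72.3 and 129 CPM (ratio 1.78, 1.47 to 2.14) and *Sdhc* at 102, 75.8 and 107 CPM (ratio 1.41, 1.16 to 1.71). In ureteric cells the median of the complex was 0.03. Longer members were the higher ones here. In the nephron the rank correlation of coding length with the log2 ratio was 0.63 across 42 members and -0.40 across 9722 genes, so the signs differed. *Atp5b*, among the longest, was at 1049.5, 739.9 and 1012 CPM in the nephron, with a log2 ratio of 0.45, and *Atp5a1* at 841, 542 and 665 CPM, with 0.29. Both were highest in Enl-WT and lowest in Enl-T1, with Enl-T1 TDI-11055 in between.

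The comparison of Enl-T1 TDI-11055 with Enl-WT shares a library with each comparison above and adds no independent evidence. In it 22 of 42 members were called higher and 1 lower in the nephron (all genes 8.77% and 47.8%), 20 of 42 and 0 in stroma (all genes 11.8% and 39.3%), 18 of 41 and 0 in ureteric cells (all genes 7.50% and 37.5%) and 19 of 41 and 0 in NP1-like cells (all genes 8.55% and 41.9%). In endothelial cells 21 of 41 were called, beside 55.3% of all genes called in either direction and 44.9% called lower, and 20 of these members were higher and 1 lower. With median-of-ratios scaling, 36 were called higher in the nephron (beside 27.6% of all genes called higher and 54.5% in either direction), 34 in stroma (25.1% of all genes called higher and 51.2% in either direction), 28 in ureteric cells (20.2% of all genes called higher and 42.4% in either direction) and 36 in endothelial cells (26.7% of all genes called higher and 54.0% in either direction), and none lower. *Atp5k* had log2 ratios of 2.05, 2.15, 1.83 and 2.08 in nephron, stroma, ureteric and endothelial cells, and *Sdha* -0.51, -0.10, -0.34 and -0.24. In each of the 4 lineages the same 17 members were called higher, beside 3.21% of all genes, with the libraries again shared among lineages.

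The wider pathway was followed through a list of 37 assembly factors, 10 transcriptional regulators, 3 subunits outside the rule and the inhibitor of complex V. Between Enl-T1 and Enl-WT, 4 of 35 assembly factors were called higher and 1 lower in the nephron, with a median of -0.04. Of all genes, 6.87% were called higher there and 44.9% lower. In stroma the counts were 5 and 4 of 34 (all genes 8.70% and 36.9%). In ureteric cells they were 8 and 1 of 35 (all genes 7.48% and 34.7%), and in endothelial cells 6 and 7 of 35 (all genes 7.58% and 36.7%). The copper chaperone *Cox17*, a short protein, was at 55.9, 125 and 136 CPM (ratio 2.24, 2.06 to 2.44). Of the subunits outside the rule, cytochrome c (*Cycs*) was at 87.2, 170.1 and 241 CPM and *Ndufa4*, now counted with complex IV, at 606, 1085 and 963 CPM, both called higher, whereas cytochrome c1 (*Cyc1*) of complex III was at 208, 157 and 199.8 CPM.

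Regulators were described against a background in which many genes were lower in Enl-T1. In the nephron 7 of 10 were called lower in Enl-T1 and 1 higher, beside 44.9% and 6.87% of all genes, with a median of -0.69, below the median of all genes at -0.41. In stroma, ureteric and endothelial cells 6 of 9, 6 of 10 and 5 of 8 were called lower, beside 36.9%, 34.7% and 36.7% of all genes. The coactivator *Ppargc1a*, known to drive mitochondrial biogenesis, was at 79.4, 34.9 and 31.0 CPM in the nephron (ratio 0.440, 0.395 to 0.489). *Nrf1* had a log2 ratio of -0.81, *Gabpa* of -0.54 and *Yy1* of -0.78, while *Tfam*, which maintains mitochondrial DNA, was at 78.1, 74.9 and 76.2 CPM. All genes with at least 1200 coding bases had a median of -0.61 in that comparison. Nephron sums also mix classes, and proximal tubule-like cells numbered 235 in Enl-WT and 24 in Enl-T1. Within libraries *Ppargc1a* was at 129.8 against 19.9 CPM in proximal tubule-like against NP1-like cells of Enl-WT, 108 against 23.7 CPM in Enl-T1 and 27.7 against 16.4 CPM in Enl-T1 TDI-11055. The orphan receptor *Esrra*, its partner, was higher in the tubule class by 2.93-fold (1.91 to 4.50), 3.12-fold (1.10 to 7.17) and 1.98-fold (1.02 to 3.51). *Atpif1*, which inhibits complex V when it runs in reverse, was higher there by 2.27-fold (2.13 to 2.43), 1.42-fold (1.24 to 1.61) and 1.72-fold (1.59 to 1.85). So *Esrra* and *Atpif1* were called higher in the tubule class in all 3 libraries. The members *Sdhc* and *Cox7a1* were too. *Sdhc* lay close to the fold of 1.4 in the mutant libraries, and *Cox7a1* has the limit of depth given above. The other 26 members called higher there in Enl-WT were called in neither mutant library. The difference between libraries was not tested.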

How the data were processed

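Raw UMI counts per gene and barcode were deposited for 3 libraries of E15.5 mouse kidney. Per the labels and the study's methods, the authors made these counts with Cell Ranger 6.1.2 on build mm10, and the deposited matrices carried no further normalization, doublet removal or correction for free RNA. Class names were rebuilt here, so that differences from the study may come from those names.

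Barcodes with 1000 to 6000 genes and at most 10% mitochondrial UMIs were kept (scanpy 1.11.5, Python 3.11.15). Libraries were integrated and clustered in Seurat 5.3.0 (R 4.3.3) without 189 respiratory and *Hox* genes and 129 technical genes, giving 18 clusters and 36 sub-clusters, of which 8 stayed unnamed and entered lineage sums only. Classes were named from marker lists, needing at least 3 markers in at least 10% of cells. Doublets were left in. Scrublet marked 123 and 41 barcodes in Enl-WT and Enl-T1, and its threshold failed in Enl-T1 TDI-11055, where the 142 highest scores served as the alternative.

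UMIs were summed per class and library. Rates have exact Poisson intervals, ratios exact intervals from the split of counts and shares Clopper-Pearson intervals, all at 95% (scipy 1.17.1), and a count of 0 allows up to 3 counts. No p-value was computed. The members and lists were chosen with earlier results of these data known. Any member could be named, those in full being isoforms, members past a fold of 1.4 and the 3 highest and 3 lowest. The scripts were tested on simulated counts. Alternatives were median-of-ratios scaling, no minimum level, other cell filters, thinning to 2000 UMIs, doublet removal, 1 sex and clustering on all genes. Added after seeing the data were members of at least 300 coding bases, named sub-clusters only and cells of at least 1% mitochondrial UMIs.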

Additional observations from a re-analysis of the deposited data

Results flagged for a closer look

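Some members moved in opposite directions in different lineages under the same comparison, and these are given as values. The differences between lineages were not tested, and each comparison rests on 1 library a group. With TDI-11055 relative to Enl-T1 alone, *Cox4i2* had a log2 ratio of 0.60 in stroma (187 against 392 UMIs) and of -0.58 in the nephron (148 against 167 UMIs). After thinning to 2000 UMIs these were 0.28 and 0.10, so both were then above 0. Relative to Enl-WT, *Cox6b2* had in Enl-T1 TDI-11055 log2 ratios of 1.14 in the nephron, 0.92 in stroma and 0.74 in ureteric cells, and of -0.82 in endothelial cells, where it rested on 7 against 20 UMIs and the ratio was 0.566-fold (0.202 to 1.39). The endothelial value turned to 0.31 after thinning, the same direction as in the other lineages. Classes within stroma and nephron differ in their share of *Cox4i2*, and they were present in different proportions in the libraries. The part of this in the result was not tested.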

How the results depend on the processing

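Of the summary values (medians, counts of members and isoform shares), 440 values under an alternative stayed close to the main one, and the others, given here, moved further. Of 233 medians under an alternative, 7 had the other sign. Of the values of single members, 8512 kept their side of the fold of 1.4, 298 passed it newly in the same direction and 10 in the opposite one, 139 fell short of it, and 10 called members changed sign, 2 of them to at least 1.4-fold in the new direction. The cause was not tested. Values are given as members called higher or as median log2 ratios. The share of all genes called under the same alternative is not given beside them here. The counts therefore show only how the values move with the processing.

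For Enl-T1 against Enl-WT, median-of-ratios scaling gave medians of 0.76 (nephron) and 0.59 (endothelial). With coding sequences of at least 300 bases, which leaves fewer genes, medians were -0.047 in the nephron, -0.057 in stroma, 0.16 in ureteric cells and 0.13 in NP1-like cells, with 4, 3, 4 and 4 members called higher, and 3 in endothelial cells. For Enl-T1 TDI-11055 against Enl-WT the scaling gave medians of 0.95 in the nephron, 0.68 in ureteric and 0.84 in endothelial cells, with 36, 28 and 36 called, and 34 called in both stroma and NP1-like cells. With at least 300 coding bases the medians were 0.22, 0.30, 0.21 and 0.26 in nephron, stroma, ureteric and NP1-like cells, with 6, 4, 3 and 3 called, and 5 in endothelial cells.

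For Enl-T1 TDI-11055 against Enl-T1, 1 member was called higher in the nephron with no minimum level and with 1500 to 5000 detected genes, and 1 in NP1-like cells with no minimum level. Cells thinned to 2000 UMIs gave a median of 0.21 and 2 called in the nephron, 12 called in stroma and 1 in NP1-like cells. With at least 300 coding bases medians were 0.23 in the nephron, -0.033 in ureteric and 0.19 in NP1-like cells. Male cells alone gave 8 called in stroma, and a median of 0.14 with 3 called in endothelial cells.

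For proximal tubule-like over NP1-like cells, at most 5% mitochondrial UMIs gave 0.34 with 13 called in Enl-WT and -0.0057 in Enl-T1. In Enl-WT 18 were called with at least 300 coding bases. In Enl-T1 the median was -0.044 with 1500 to 5000 genes and 0.0099 with median-of-ratios scaling, and 8 were called after thinning. In Enl-T1 TDI-11055 the median was 0.028 in male cells, and 1 was called after thinning and with at least 1% mitochondrial UMIs. The *Cox4i2* share of renin/mesangial/pericyte-like cells in Enl-WT was 16.1% in male and 10.7% in female cells.

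Signs changed for *Cox4i2* in the nephron, at 0.10 for Enl-T1 TDI-11055 against Enl-T1 after thinning and at -0.075 for Enl-T1 TDI-11055 against Enl-WT in female cells, and for *Cox6b2* in endothelial cells after thinning (Enl-T1 TDI-11055 against Enl-WT, 0.31). In proximal tubule-like over NP1-like cells they changed for *Sdhb* (-0.14), *Atp5o* (-0.12) and *Cox6b2* (1.42) in Enl-WT at 5% mitochondrial UMIs, for *Cox6b2* in Enl-T1 (0.74 at 5%, 0.35 after thinning) and in Enl-T1 TDI-11055 (0.36 after thinning), and for *Cox4i2* in Enl-T1 TDI-11055 (-0.085 in male cells). Male cells gave no value for proximal tubule-like cells of Enl-T1. No paired analysis was possible because each group had 1 library, and no replicate could be left out. Members with few UMIs, such as *Cox7a1* and *Cox4i2* in small classes, are limited by depth.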

Other observations

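Cells with under 1% mitochondrial UMIs, a limit chosen after seeing the data, numbered 46, 120 and 739 in the 3 libraries, or 0.879%, 2.90% and 26.8%. In Enl-T1 TDI-11055 they were 601 of 1344 nephron cells, 283 of 752 NP1-like cells, 85 of 1020 ureteric cells, 37 of 269 stromal cells and 12 of 116 endothelial cells, so they lay mostly in the nephron. Within that library the members took 2.73% of non-mitochondrial UMIs in such NP1-like cells and 2.20% in the other NP1-like cells, and 2.46% against 1.95% in ureteric cells. In distal tubule/loop of Henle-like cells the shares were 2.70% and 2.71%. Of the UMIs of the median cell, 34.4% came from ribosomal protein genes among the cells under 1% and 26.3% among the others.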
